A study of Homo sapiens with 24 samples.

Results

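The BCL2 family governs the mitochondrial step of apoptosis, and it was followed here through 10 genes chosen by symbol: BAX, BAK1, BBC3, PMAIP1, BID, BCL2L11, BIK, HRK, BCL2L1 and MCL1. Each symbol matched 1 Ensembl gene identifier, 10 of the 60675 identifiers listed for each library. All 10 were among the 20668 genes that passed the filter on low values and were tested. The cells were HCT116, an established human colorectal carcinoma line, in 3 versions labelled p53 Mutant, p53 Null and p53 wild type (WT). Each version received 20 uM APR-246 before 6 Gy of irradiation (the combination), 6 Gy alone, 20 uM APR-246 alone, or solvent, and cells were collected at 72 hours. All grew in McCoy 5A medium with 10% fetal bovine serum and antibiotics, and each of the 12 groups gave 2 libraries, 24 in all. APR-246 is a prodrug whose product binds cysteines of p53, and it was developed to restore activity to mutant p53. The title of the series puts the question as whether the drug makes colorectal cancer more sensitive to radiotherapy.

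Each p53 status was a single line, so line and p53 status cannot be told apart, and the labels do not name the mutant allele. The labels number the libraries of a group without saying whether they came from separate cultures, so the p-values measure only the spread between these libraries, which may be technical. The values are in CPM, read counts scaled to the library total, over totals of 53184139 to 58058729 reads. The epithelial markers KRT8 (2355 to 9283 CPM) and EPCAM (58.2 to 225 CPM) were present in every library. The blood markers stayed at or under 0.441 CPM, and of the fibroblast markers LUM stayed at or under 0.0741 CPM while COL1A1 lay between 11.5 and 67.9 CPM.

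BAX and BAK1 are the effectors that open pores in the outer mitochondrial membrane and release cytochrome c. The guardians BCL-XL (product of BCL2L1) and MCL1 hold them in check. The BH3-only proteins, which include PUMA (BBC3), NOXA (PMAIP1), BID, BIM (BCL2L11), BIK and HRK, bind the guardians or the effectors and push the balance towards death. After DNA damage p53 is known to drive transcription of BAX, BBC3 and PMAIP1.

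Promoters are shown for the members on which the results turn (both effectors, PMAIP1 and HRK), from 250 bases before to 50 bases after the transcription start, as given by RefSeq for GRCh38.p14. A promoter was matched for 8 of the 10 members; BIK and MCL1 are named only. Capitals mark each match, on either strand, to the E-box CACGTG, the CRE core ACGTCA or the p53 half-site. The BAX window is chr19:48954625-48954924 on the plus strand, that of BAK1 is chr6:33580227-33580526 on the minus strand, that of PMAIP1 is chr18:59899746-59900045 on the plus strand, and that of HRK is chr12:116881392-116881691 on the minus strand. All are written 5′ to 3′ in the direction of transcription.
BAX: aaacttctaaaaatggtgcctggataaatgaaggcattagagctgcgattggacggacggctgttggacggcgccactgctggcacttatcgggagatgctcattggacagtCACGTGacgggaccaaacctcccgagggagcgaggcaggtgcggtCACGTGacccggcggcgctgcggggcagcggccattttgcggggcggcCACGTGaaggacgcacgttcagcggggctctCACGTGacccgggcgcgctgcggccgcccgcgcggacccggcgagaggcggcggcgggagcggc
BAK1: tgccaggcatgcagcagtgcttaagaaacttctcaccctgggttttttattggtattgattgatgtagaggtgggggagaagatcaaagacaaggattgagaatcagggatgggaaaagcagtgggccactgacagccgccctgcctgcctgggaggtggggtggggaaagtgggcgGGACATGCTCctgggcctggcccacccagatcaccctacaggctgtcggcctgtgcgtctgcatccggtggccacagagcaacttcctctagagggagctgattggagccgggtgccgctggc
PMAIP1: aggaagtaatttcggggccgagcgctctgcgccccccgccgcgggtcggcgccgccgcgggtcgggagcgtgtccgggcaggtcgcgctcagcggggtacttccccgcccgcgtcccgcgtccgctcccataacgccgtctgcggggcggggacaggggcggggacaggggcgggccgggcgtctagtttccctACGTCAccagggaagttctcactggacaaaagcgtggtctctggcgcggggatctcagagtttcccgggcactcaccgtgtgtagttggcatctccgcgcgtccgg
HRK: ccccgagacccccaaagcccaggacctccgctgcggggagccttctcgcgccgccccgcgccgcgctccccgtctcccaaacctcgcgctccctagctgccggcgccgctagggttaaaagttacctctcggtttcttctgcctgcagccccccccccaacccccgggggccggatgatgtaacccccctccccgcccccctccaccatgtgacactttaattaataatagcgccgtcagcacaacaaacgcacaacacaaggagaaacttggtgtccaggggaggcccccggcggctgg
The BAX window held 4 E-boxes, with first bases at -138, -93, -45 and -14 from the start. At least 1 E-box occurred in 7.26% of 35116 RefSeq promoters of this length, and 5 promoters held 4 or more. BAK1 had 1 p53 half-site at -73, a match found in 6.63% of promoters, and PMAIP1 had 1 CRE core at -56, found in 7.98%. The HRK window held no match to these motifs. A match describes the letters only and is not a bound site.

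Per length, BCL2L1, a guardian, was the highest of the 10 members in 23 of 24 libraries. Values were converted to TPM from the recovered reads and the summed exon length of each gene. BCL2L1 had the highest median (256 TPM, range 202 to 398 over 24 libraries), followed by MCL1 (102 TPM, 45.6 to 247), whose range overlapped those of the members below it down to BAK1 and BID; BAX exceeded MCL1 in all 4 irradiated WT libraries. BIK, BBC3, BAX and PMAIP1 had medians of 87.4, 74.5, 72.7 and 72.3 TPM, and their ranges overlapped. BAK1 (39.6 TPM) and BID (38.4 TPM) came next and overlapped too. BCL2L11 lay at 3.59 to 13.7 TPM, under every value of the 8 members above it, and HRK at 0.521 to 6.54 TPM, overlapping BCL2L11. Exons of BCL2L11 share 10.9% of their bases with MIR4435-2HG on the other strand (3.31 to 22.0 CPM), and since the counting strand is not given in the sources used here, BCL2L11 values are uncertain. BCL2L1 shares 43.0% of its exon bases with the antisense gene ABALON, which did not exceed 0.0552 CPM.

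**Figure D1:**
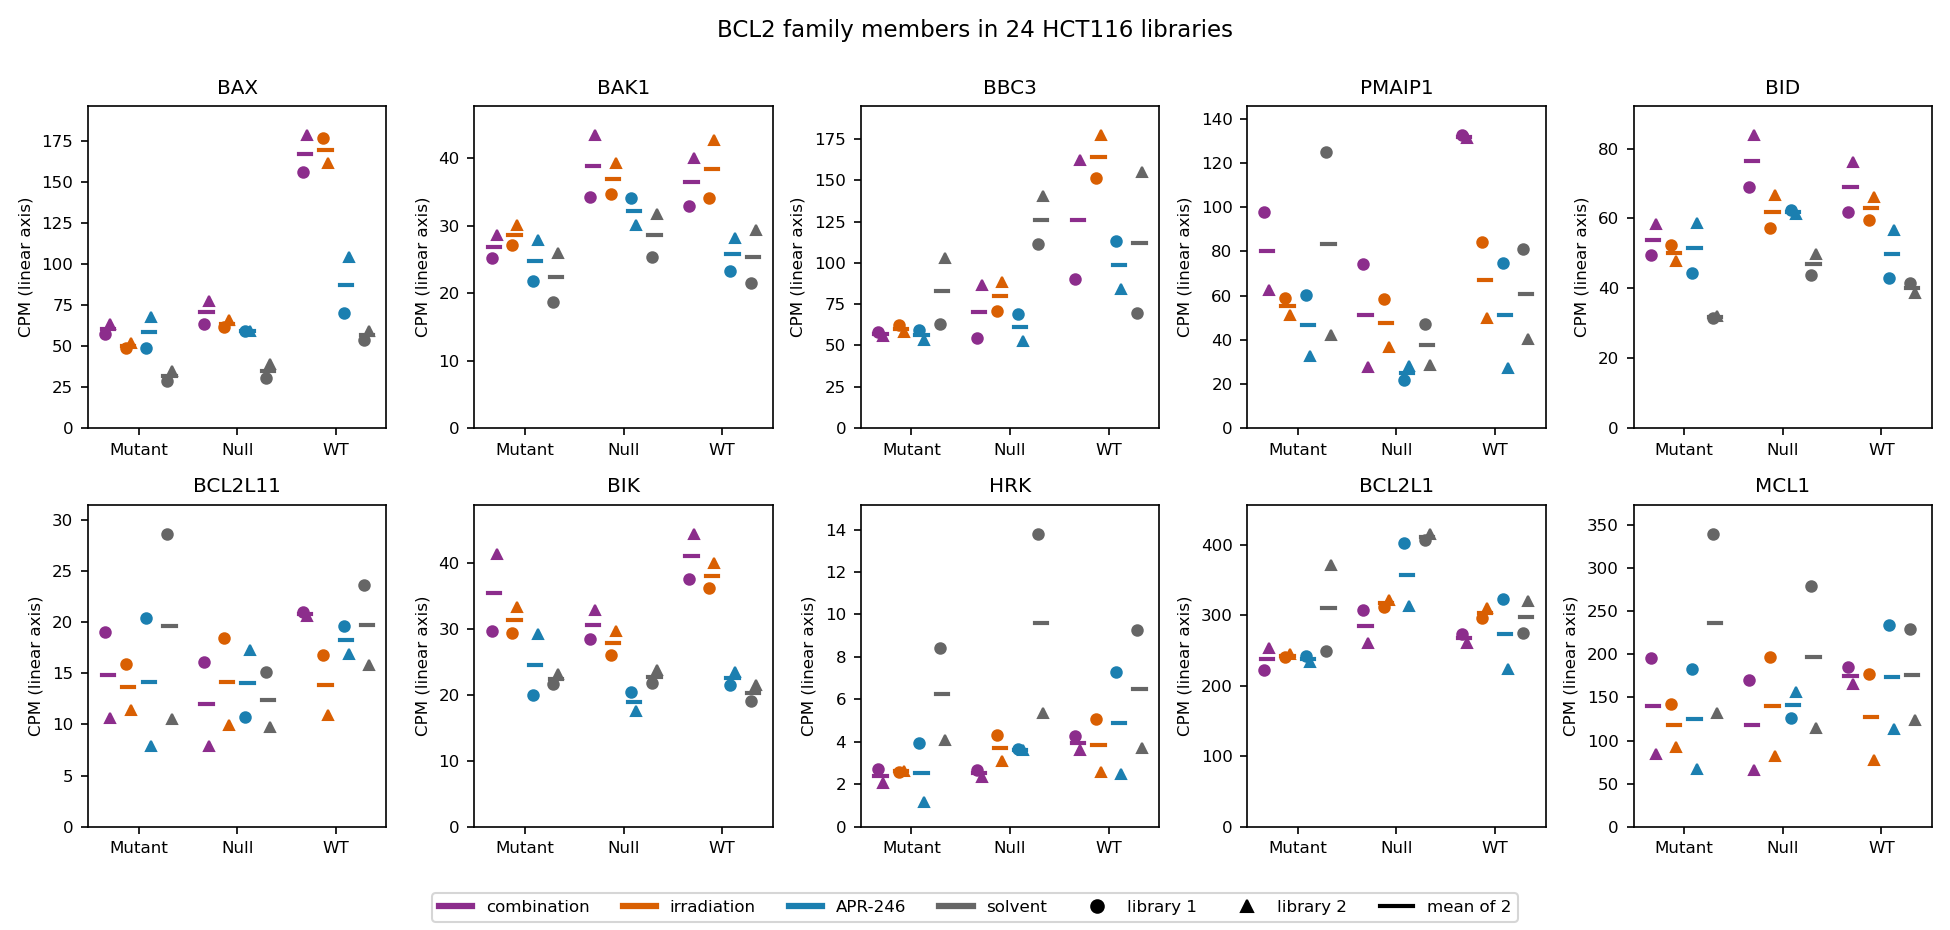
CPM of the 10 members (1 panel each, linear axis) in all 24 libraries, by line and, within a line, combination, irradiation, APR-246 and solvent from left to right; circles and triangles are libraries 1 and 2 and the bar is their mean. BAX in WT stands at 156 to 178 CPM in the 4 irradiated libraries and 53.6 to 104 CPM in the 4 unirradiated ones, and for MCL1 library 1 lies above library 2 in 11 of 12 groups.

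Tests were run with limma on log2(CPM + 0.5) values of all 20668 genes, after CPM were scaled by TMM factors (0.741 to 1.28). Calls were made where the p adjusted by Benjamini-Hochberg was under 0.05. CPM in the text are the deposited values without these factors. Statements that libraries lay above or below each other or overlapped use the deposited CPM, and some of them change after TMM scaling. A second limma model added 1 covariate, the slope of each library's log2 values on gene GC percent, because libraries of a group differed along GC content; its results are named as "with the GC slope". The median SE of a difference between 2 groups was 0.321 without the slope and 0.186 with it. Without the slope, 1 member was called in 1 of 30 comparisons (HRK, lower after the combination in Null). With the slope 63 member calls were made in 19 comparisons, of which 21 were kept whichever single library was left out and 42 were lost without at least 1 library. Of all genes, a single comparison called up to 3.94% without the slope and up to 24.9% with it. How many calls over all genes were kept in this way was not counted. edgeR called 0 members in any comparison.

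Of the 10 members, BAX had the largest log2 difference with irradiation, averaged over both drug states, in WT cells. It read 156 and 178 CPM after the combination, 177 and 162 CPM after irradiation and 70.4 and 104 CPM after APR-246, against 53.6 and 59.5 CPM in solvent. The 4 irradiated WT libraries lay above the 4 unirradiated ones. Irradiation alone differed from solvent by a log2 value of 1.58 ± 0.46, a 2.98-fold ratio that did not pass (limma, adjusted p = 0.105, 2 libraries each). That comparison called 1.56% of all genes and 0 of 10 members, 1 of which had an unadjusted p under 0.05. Averaged over both drug states, 4 against 4 libraries, the difference was 1.19 ± 0.32 (limma, adjusted p = 0.0523), where 3.94% of all genes and 0 members were called and 3 members had an unadjusted p under 0.05. Without WT APR-246 library 2 it was 1.41 and passed (limma, adjusted p = 0.0327). With the GC slope BAX rose by 1.13 ± 0.10 over the same 8 libraries (limma, adjusted p = 2.61e-08) and by 1.25 ± 0.14 for irradiation alone (adjusted p = 3.93e-06). Both calls were kept without any single library, at 1.04 to 1.23 and 1.09 to 1.38.

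In the other lines BAX was lower and no irradiation difference passed without the slope. In Mutant it read 57.2 and 63.4 CPM after the combination, 48.6 and 52.0 CPM after irradiation and 48.6 and 68.0 CPM after APR-246, against 28.5 and 34.8 CPM in solvent. In Null it read 63.3 and 77.7 CPM after the combination, 61.3 and 65.7 CPM after irradiation and 59.3 and 59.0 CPM after APR-246, against 30.5 and 39.0 CPM in solvent. Every treated library of both lines, drug alone included, lay above both solvent libraries in deposited CPM. After TMM scaling treated and solvent libraries overlapped in both lines. Separation of treated from solvent libraries was not counted over all genes, for BAX here or for the other genes below. The 8 irradiated Mutant and Null libraries, at 48.6 to 77.7 CPM, lay below the 4 irradiated WT libraries, at 156 to 178 CPM, a separation seen in 2.17% of all genes tested. For irradiation alone against solvent the slope model called 2 members in Mutant (13.5% of all genes), 5 in Null (20%) and 2 in WT (18.1%). In Null BAX rose by 0.58 ± 0.14 (limma with the GC slope, adjusted p = 0.00476), lost without Null solvent library 1 (adjusted p = 0.0701). Without the slope limma called 0 members in Mutant (0.0774% of all genes) and 0 in Null (0.677%), with 1 and 1 under an unadjusted p of 0.05.

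The difference in BAX response between lines was tested directly. For averaged irradiation it was 0.35 ± 0.32 in Mutant and 0.54 ± 0.32 in Null, against 1.19 ± 0.32 in WT, without the slope. With the slope it was 0.09 ± 0.10 in Mutant and 0.35 ± 0.10 in Null, against 1.13 ± 0.10 in WT. The Null value (limma with the GC slope, adjusted p = 0.0146) was lost without Null APR-246 library 1, Null combination library 1 or Null solvent library 1 (adjusted p up to 0.0672). WT minus Mutant was 1.04 ± 0.14 (limma with the GC slope, adjusted p = 0.000118) and WT minus Null 0.78 ± 0.14 (adjusted p = 0.00181), both kept without each of 16 libraries. These tests called 2 members beside 2.85% of all genes and 1 member beside 3.48%. Without the slope they called 0 and 0 members (limma, 0 with an unadjusted p under 0.05, 0 by edgeR), beside 0.121% and 0.126% of all genes. For irradiation alone limma called 0 members for WT minus Mutant and 0 for WT minus Null without the slope (0 and 0 with an unadjusted p under 0.05), beside 0.0387% and 0.029% of all genes. With it, BAX for WT minus Mutant was 1.00 ± 0.19 (limma with the GC slope, adjusted p = 0.0161, 0.59% of all genes called), lost without Mutant irradiation library 1, Mutant irradiation library 2, Mutant solvent library 1, Mutant solvent library 2, WT irradiation library 1 or WT solvent library 2 (adjusted p up to 0.134).

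BAK1, the other effector, moved less. WT cells had 32.9 and 40.0 CPM after the combination, 34.1 and 42.6 CPM after irradiation and 23.3 and 28.2 CPM after APR-246, against 21.5 and 29.3 CPM in solvent. Irradiated WT libraries lay above unirradiated ones in deposited CPM, but the 2 sets overlapped after TMM scaling. The averaged difference in WT was 0.47 ± 0.35 without the slope (limma, adjusted p = 0.63), and with it BAK1 rose by 0.40 ± 0.08 (limma, adjusted p = 0.000723), kept without each of 8 libraries. BAK1 stood at 25.2 to 30.1 CPM in irradiated Mutant libraries, against 18.7 to 27.9 CPM in unirradiated ones, and at 34.3 to 43.4 CPM in irradiated Null libraries, against 25.4 to 34.2 CPM. With the slope the averaged values were -0.06 ± 0.08 in Mutant and 0.09 ± 0.08 in Null, neither called (limma, adjusted p = 0.699 and 0.478). WT minus Mutant was 0.46 ± 0.11 (limma with the GC slope, adjusted p = 0.0256). That call was lost without Mutant APR-246 library 2, Mutant combination library 1, Mutant combination library 2, Mutant irradiation library 1, Mutant irradiation library 2, Mutant solvent library 1, WT combination library 2, WT irradiation library 2, WT solvent library 1 or WT solvent library 2 (adjusted p up to 0.0987).

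Among the BH3-only members, BIK, which sits mainly at the endoplasmic reticulum, separated by irradiation in every line in deposited CPM. After TMM scaling it did so only in WT. In WT it read 37.6 and 44.4 CPM after the combination, 36.2 and 40.0 CPM after irradiation and 21.5 and 23.5 CPM after APR-246, against 19.1 and 21.5 CPM in solvent. The combination libraries stood near those of irradiation, and the APR-246 libraries near solvent. Irradiated libraries stood at 29.3 to 41.4 CPM in Mutant, against 20.0 to 29.2 CPM in unirradiated ones, and at 26.0 to 32.9 CPM in Null, against 17.5 to 23.7 CPM. The averaged WT difference was 0.79 ± 0.31 without the slope (limma, adjusted p = 0.223). With it BIK rose in WT by 0.74 ± 0.11 (limma, adjusted p = 2.22e-05, kept without each of 8 libraries). With the slope the values were 0.23 ± 0.11 in Mutant and 0.28 ± 0.11 in Null, not called (limma, adjusted p = 0.166 and 0.0663).

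Over the family, in deposited CPM, irradiated libraries lay wholly above unirradiated ones for 1 of 10 members in Mutant (BIK), 3 in Null (BAX, BAK1, BIK) and 4 in WT (BAX, BAK1, BID, BIK). The share of all genes tested was 5% in Mutant, 5.57% in Null and 5.05% in WT. After TMM scaling only BAX and BIK in WT stayed apart among these. The share of all genes was not counted on that scale. No member lay wholly below, against 0.856% of all genes in Mutant, 1.37% in Null and 2.23% in WT. The median averaged log2 difference of the 10 members was 0.04 in Mutant, 0.11 in Null and 0.44 in WT without the slope, beside -0.00, -0.01 and 0.01 over all genes. With the slope limma called 2 members in Mutant (12.5% of all genes), 4 in Null (18.3%) and 5 in WT (24.9%). Without it limma called 0 in Mutant (0.523%) and 0 in Null (1.17%), with 0 and 2 under an unadjusted p of 0.05. The members called in Mutant with the slope were BBC3 (fell by 0.54 ± 0.17, adjusted p = 0.0467) and BCL2L1 (fell by 0.38 ± 0.13, adjusted p = 0.0491). The BBC3 call was kept only without Mutant APR-246 library 2 (adjusted p up to 0.169) and the BCL2L1 call only without Mutant solvent library 1 (adjusted p up to 0.392).

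**Figure D2:**
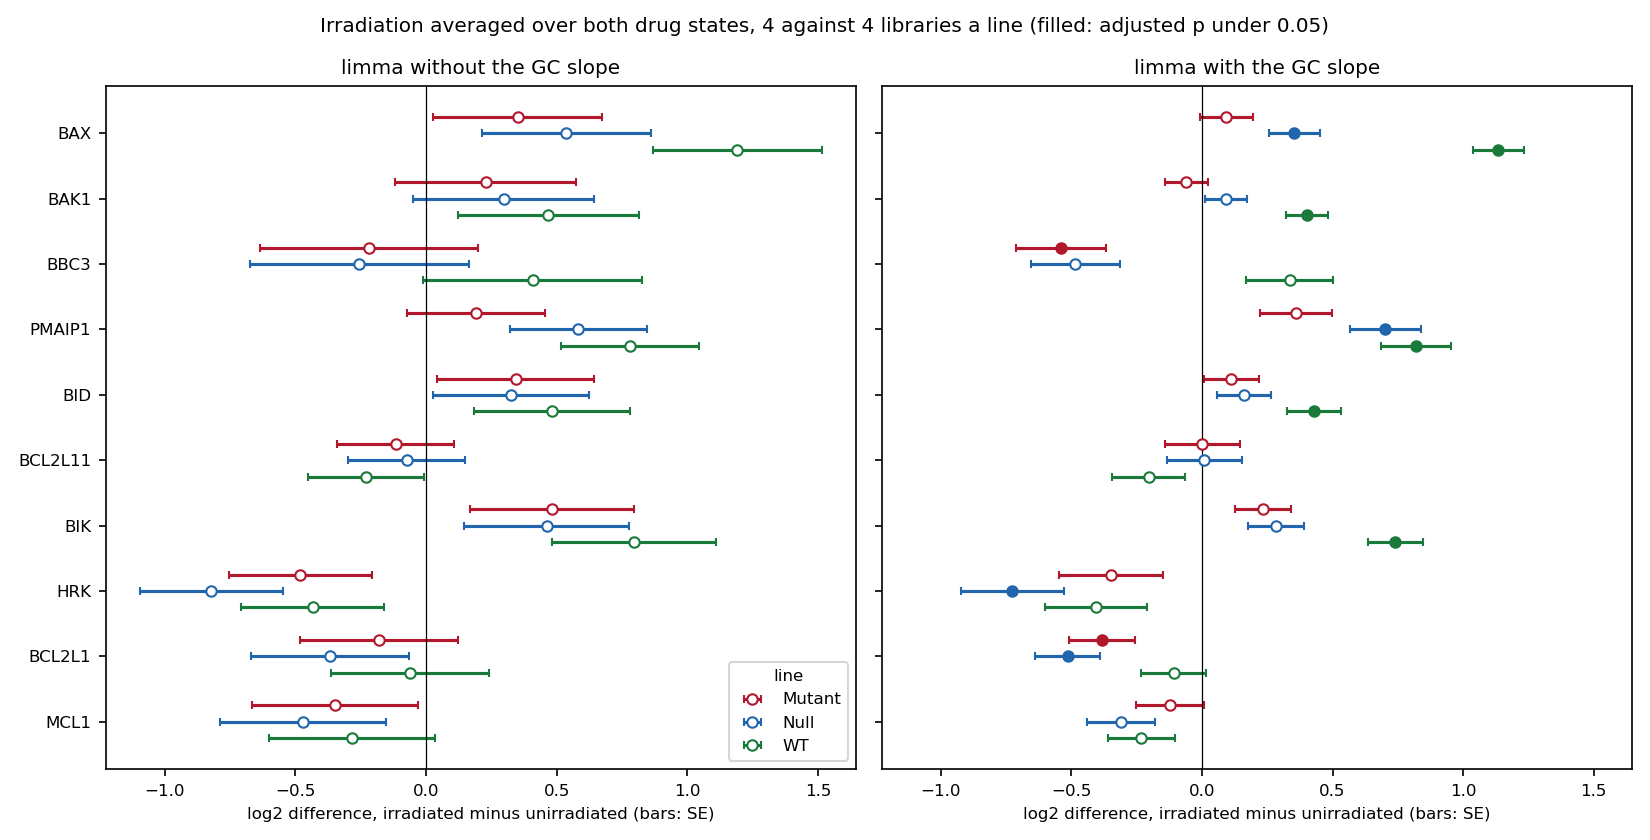
Log2 difference of 4 irradiated from 4 unirradiated libraries for each member in the Mutant, Null and WT lines, with SE bars, from limma without the GC slope (left) and with it (right); filled points passed an adjusted p of 0.05. BAX in WT is at 1.19 ± 0.32 on the left and 1.13 ± 0.10 on the right, and the WT point lies to the right of those of the other lines for BAX, BAK1, BID and BIK in both panels.

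BID, which links death receptors to mitochondria once caspase-8 cuts it, was higher in irradiated WT cells. Its WT values were 61.8 and 76.0 CPM after the combination, 59.6 and 66.1 CPM after irradiation and 43.1 and 56.7 CPM after APR-246, against 41.4 and 38.5 CPM in solvent. The 4 irradiated libraries lay above the 4 unirradiated ones in deposited CPM, but they overlapped after TMM scaling. The averaged difference was 0.48 ± 0.30 without the slope (limma, adjusted p = 0.531). With the slope BID rose by 0.43 ± 0.10 (limma, adjusted p = 0.00346), lost without WT solvent library 2 (adjusted p = 0.0513). Treated libraries stood at 44.5 to 58.6 CPM in Mutant, against 31.6 and 32.0 CPM in solvent, and at 57.3 to 83.8 CPM in Null, against 43.8 and 49.9 CPM. These did not overlap in deposited CPM, but did in both lines after TMM scaling.

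PMAIP1 encodes NOXA, which binds MCL1. In WT it read 133 and 131 CPM after the combination, 84.4 and 49.7 CPM after irradiation and 74.9 and 27.4 CPM after APR-246, against 80.9 and 40.2 CPM in solvent. The combination libraries stood above all other WT libraries and close to each other, while in the other WT groups library 1 was well above library 2. WT combination library 2 had the lowest GC slope (-0.0211) of the libraries numbered 2, and its part in these values was not tested. Against APR-246 alone, the combination differed by 1.38 ± 0.37 without the slope (limma, adjusted p = 0.172), where 0.411% of all genes and 0 members were called (1 with an unadjusted p under 0.05). With the slope PMAIP1 rose by 1.24 ± 0.19 (limma, adjusted p = 0.000358), 1 of 5 members called beside 8.42% of all genes, and was kept without each of 4 libraries, at 0.83 to 1.67. In Null PMAIP1 read 74.4 and 27.5 CPM after the combination and 21.6 and 28.0 CPM after APR-246, which overlap. Without the slope 0 members were called in Null beside 0.0242% of all genes (limma, 1 member with an unadjusted p under 0.05). There it rose by 1.13 ± 0.19 with the slope (limma, adjusted p = 0.00347, 2 members and 2.65% of all genes called), lost without Null APR-246 library 1 (adjusted p = 0.0956). With averaged irradiation PMAIP1 rose by 0.70 ± 0.14 in Null (limma with the GC slope, adjusted p = 0.00128) and 0.82 ± 0.13 in WT (adjusted p = 0.000123), each kept without any of 8 libraries, although irradiated and unirradiated libraries overlapped in CPM. Without the slope limma called PMAIP1 for averaged irradiation in neither line.

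BBC3 encodes PUMA, which binds all the guardians. In WT it read 90.5 and 162 CPM after the combination, 151 and 177 CPM after irradiation and 113 and 84.0 CPM after APR-246, against 69.4 and 155 CPM in solvent. The WT solvent libraries lay far apart, and no treatment comparison of BBC3 within WT passed in either model. In Null it read 54.6 and 86.3 CPM after the combination, 71.1 and 88.5 CPM after irradiation and 69.0 and 52.8 CPM after APR-246, against 111 and 141 CPM in solvent. All 6 treated Null libraries lay below both solvent libraries in deposited CPM, and how many of all genes do so was not counted. After TMM scaling treated and solvent libraries overlapped. With the slope BBC3 fell in Null by 1.19 ± 0.24 after the combination (limma, adjusted p = 0.00166) and by 1.20 ± 0.24 after APR-246 (adjusted p = 0.0031), both kept without each of 4 libraries. Without the slope the values were -0.92 ± 0.59 and -1.22 ± 0.59 (limma, adjusted p = 0.518 and 0.604).

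HRK, a BH3-only gene best known from neurons and the member with the lowest level, was lower after treatment in Null and in Mutant. In Null it read 2.68 and 2.34 CPM after the combination, 4.33 and 3.08 CPM after irradiation and 3.65 and 3.60 CPM after APR-246, against 13.8 and 5.38 CPM in solvent. Every treated Null library lay below both solvent libraries, which differed widely from each other. After the combination HRK fell by 1.67 ± 0.39 without the slope (limma, adjusted p = 0.0402, 2 libraries each), 1 of 10 members called where 1.95% of all genes were. The call was lost without Null combination library 1, Null combination library 2, Null solvent library 1 or Null solvent library 2 (adjusted p up to 0.275). With the slope HRK fell by 1.55 ± 0.28 (limma, adjusted p = 0.000422), kept without each of 4 libraries. In Mutant HRK read 2.72 and 2.03 CPM after the combination and 2.58 and 2.62 CPM after irradiation. After APR-246 it read 3.92 and 1.16 CPM there, against 8.41 and 4.07 CPM in solvent. Every treated Mutant library thus also lay below both solvent libraries of its line. In WT HRK read 4.26 and 3.63 CPM after the combination, against 9.27 and 3.69 CPM in solvent, which overlap.

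BCL2L11, the gene of BIM, was called in 0 of 30 comparisons by limma with or without the slope and by edgeR. Treated libraries stood at 7.93 to 20.4 CPM in Mutant, against 28.7 and 10.6 CPM in solvent, at 7.92 to 18.5 CPM in Null, against 15.1 and 9.73 CPM, and at 10.9 to 21.0 CPM in WT, against 23.7 and 15.8 CPM.

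The guardian BCL2L1 did not rise in any comparison that passed. In WT it read 273 and 261 CPM after the combination, 296 and 311 CPM after irradiation and 323 and 223 CPM after APR-246, against 275 and 319 CPM in solvent, so treated and solvent libraries overlapped. In Null it read 308 and 261 CPM after the combination, 312 and 322 CPM after irradiation and 402 and 313 CPM after APR-246, against 406 and 415 CPM in solvent. Each treated Null library lay below both solvent libraries in deposited CPM, but treated and solvent libraries overlapped after TMM scaling. With the slope BCL2L1 fell in Null by 0.76 ± 0.18 after the combination (limma, adjusted p = 0.0031), lost without Null combination library 2 (adjusted p = 0.0648), and with averaged irradiation by 0.51 ± 0.12 (adjusted p = 0.00635), lost without Null APR-246 library 1 (adjusted p = 0.053). Without the slope the values were -0.59 ± 0.43 and -0.37 ± 0.30 (limma, adjusted p = 0.574 and 0.694).

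MCL1, the short-lived guardian, differed widely between the libraries of a group. WT libraries gave 186 and 165 CPM after the combination, 177 and 77.4 CPM after irradiation and 234 and 113 CPM after APR-246, against 229 and 124 CPM in solvent. It read 195 and 84.6 CPM after the combination in Mutant, against 339.9 and 132 CPM in solvent, and 171 and 66.0 CPM in Null, against 279.9 and 115 CPM. Treated and solvent libraries overlapped in every line. With the slope MCL1 fell after the combination by 0.55 ± 0.18 in Mutant (limma, adjusted p = 0.0435), lost without Mutant combination library 2 or Mutant solvent library 2 (adjusted p up to 0.442). In Null it fell by 0.62 ± 0.18 (adjusted p = 0.0163), lost without Null combination library 1, Null combination library 2, Null solvent library 1 or Null solvent library 2 (adjusted p up to 0.0895). In a bulk sample, fewer cells with a transcript and less of it per cell cannot be told apart.

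Library number and GC content moved with several of these values. Library 1 read higher than library 2 in 11 of 12 groups for PMAIP1, MCL1, BCL2L11 and HRK, which have 37.2 to 49.6% GC. The median log2 ratio of library 1 over library 2 was 0.74 for PMAIP1, 1.20 for MCL1, 0.63 for BCL2L11 and 0.73 for HRK. For the 6 members of 49.7 to 69.7% GC library 1 was higher in 1 to 5 of 12 groups, with medians of -0.30 to -0.03. HRK (49.6% GC) and BID (49.7% GC) were nearly equal in GC content, yet their medians were 0.73 and -0.20. The slope of log2 values on GC percent was taken over tested genes with a GC value and a mean log2 value of at least 2. It was -0.0649 to 0.0142 per percentage point in libraries numbered 1 and -0.0211 to 0.0595 in those numbered 2. The exception for PMAIP1, MCL1 and BCL2L11 was the APR-246 group of Null. In the combination group of WT their log2 ratios were 0.012, 0.17 and 0.026, below their medians. Beyond the values with the slope, the part of GC content in the treatment differences was not tested.

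**Figure D3:**
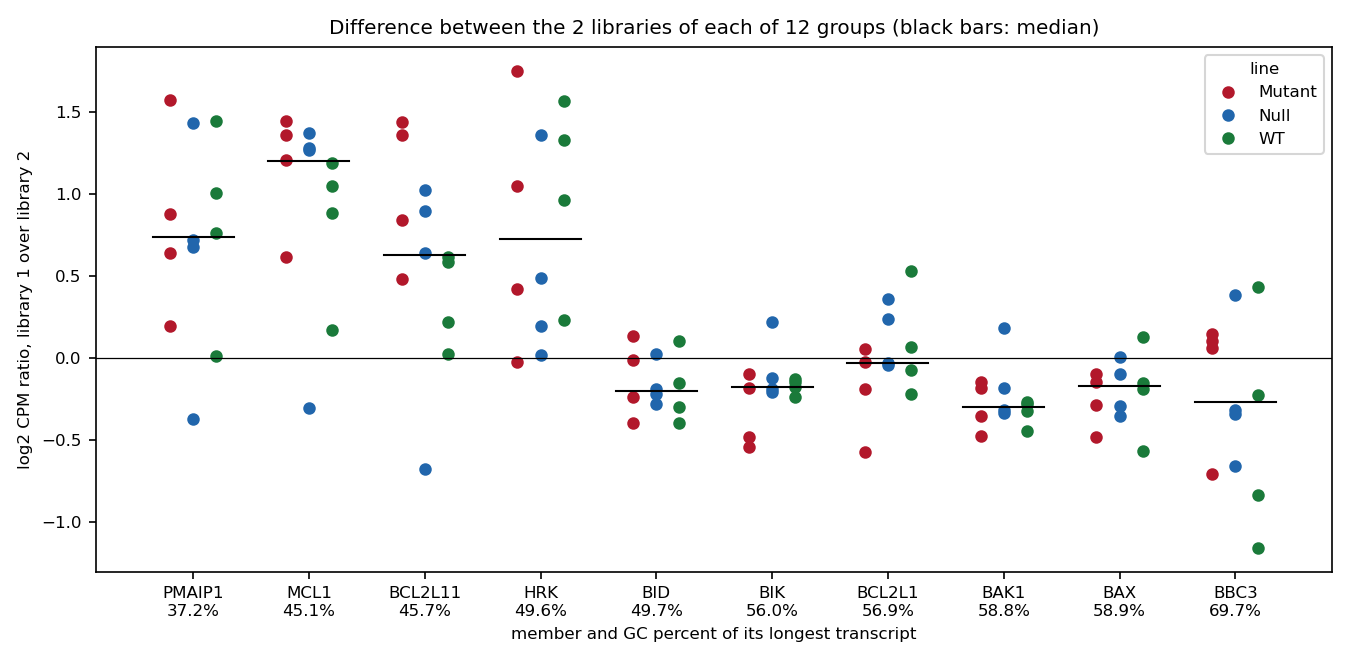
Log2 ratio of library 1 over library 2 within each of the 12 groups for each member, ordered by GC percent and coloured by line, with the median as a black bar. PMAIP1, MCL1, BCL2L11 and HRK have medians of 0.63 to 1.20, and the other 6 members have medians of -0.30 to -0.03.

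Ratios of 2 members within a library set one gene against another without the library's scaling. BAX over BCL2L1, as reads per exon length, was 0.259 to 0.330 in irradiated Mutant libraries, against 0.120 to 0.374 in unirradiated ones. It was 0.252 to 0.381 in irradiated Null libraries, against 0.0963 to 0.242, and 0.667 to 0.876 in irradiated WT libraries, against 0.239 to 0.599. The groups overlapped in Mutant and not in Null or WT, and BCL2L1 had more reads per length than BAX in all 24 libraries. PMAIP1 over MCL1 was 0.805 to 1.45 in irradiated Mutant libraries, against 0.620 to 0.956 in unirradiated ones. It was 0.581 to 0.875 in irradiated Null libraries, against 0.328 to 0.485, and 0.934 to 1.56 in irradiated WT libraries, against 0.474 to 0.691. This ratio separated irradiated from unirradiated libraries in Null and WT, although neither gene did so by itself. How many other pairs of genes separate these libraries as well was not counted, for either ratio.

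**Figure D4:**
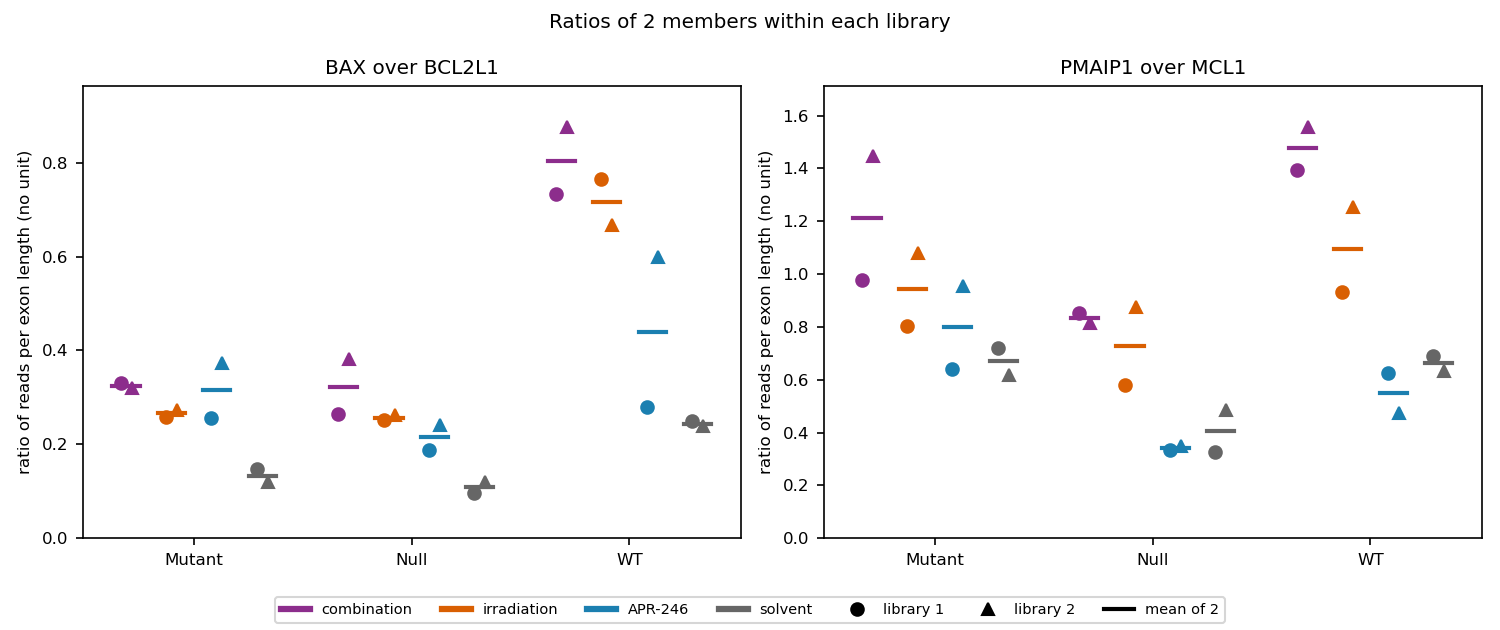
Ratio of reads per exon length of BAX over BCL2L1 (left) and PMAIP1 over MCL1 (right) in each of the 24 libraries, by line and, from left to right within a line, combination, irradiation, APR-246 and solvent; bars are means of 2. The 4 irradiated WT libraries have BAX over BCL2L1 ratios of 0.667 to 0.876 and lie above all other libraries.

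APR-246 alone moved no gene past the threshold in WT in either limma model, where 0% of all genes were called and 557 had an unadjusted p under 0.05 without the slope. None of the 10 members had an unadjusted p under 0.05 there without the slope (0 by limma), against 2 with it. The WT drug libraries stood apart from each other: BAX read 70.4 and 104 CPM, against 53.6 and 59.5 CPM in solvent, and PMAIP1 74.9 and 27.4 CPM, against 80.9 and 40.2 CPM. ATF4 read 839 and 283 CPM in them, against 885 and 735 CPM in solvent. With libraries this far apart, the lack of calls does not show that the drug had no effect in WT. With the slope the BAX difference was 0.71 without WT APR-246 library 1 (limma, adjusted p = 0.00221) and 0.32 without library 2 (adjusted p = 1.00). BAX rose with the slope by 0.65 ± 0.14 in Mutant (limma, adjusted p = 0.0112) and 0.61 ± 0.14 in Null (adjusted p = 0.00475), among 4 and 5 members called beside 6.74% and 15.1% of all genes. The Mutant call was lost without Mutant APR-246 library 2 or Mutant solvent library 2 (adjusted p up to 0.313) and the call in Null without Null solvent library 1 or Null APR-246 library 2 (adjusted p up to 0.0788). Without the slope limma called 0 members in Mutant (0% of all genes) and 0 in Null (0.131%), with 1 in each under an unadjusted p of 0.05.

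Adding the drug to irradiation moved no member past the threshold. For the combination against irradiation limma called 0 of 20668 genes in each line with or without the slope, and edgeR called 0 members. Without the slope 0 members in Mutant, 0 in Null and 0 in WT had an unadjusted p under 0.05, and with it 1, 1 and 3. BAX differed in WT by -0.28 ± 0.46 without the slope and 0.29 ± 0.15 with it (limma, adjusted p = 0.819 and 0.443). Its sign thus changed with the model. PMAIP1 differed in WT by 0.76 ± 0.37 without the slope and 0.38 ± 0.20 with it (limma, adjusted p = 0.785 and 0.468). Where the combination was set against the single effects added together, limma and edgeR called 0 members in each line. With the slope 3.44% of all genes were called in Null, and 2 members in Mutant, 5 in Null and 2 in WT had an unadjusted p under 0.05, against 0, 0 and 1 without it. For the combination against APR-246 in Mutant limma called 0 members without the slope and 0 with it (0.368% of all genes), with 0 and 2 under an unadjusted p of 0.05. These p-values do not show that the treatments act alike.

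Against solvent, the combination shared its solvent libraries with the single treatments. With the slope limma called 6 members in Mutant (16.5% of all genes), 6 in Null (24.6%) and 6 in WT (21.7%). In Mutant and in Null BAX and BID were higher and BBC3, BCL2L1, MCL1 and HRK lower. In WT BAX, BAK1, PMAIP1, BID and BIK were higher and HRK lower. BAX rose by 0.59 ± 0.14 in Mutant, 0.74 ± 0.14 in Null and 1.54 ± 0.14 in WT (limma with the GC slope, adjusted p = 0.00617, 0.000621 and 1.18e-07). The Null and WT calls were kept without each of 4 libraries, and the Mutant call was lost without Mutant combination library 2 or Mutant solvent library 2 (adjusted p up to 0.168). In WT BAK1 (0.53 ± 0.11), BID (0.73 ± 0.15) and BIK (0.97 ± 0.15) were kept without each of 4 libraries. PMAIP1 (0.78 ± 0.19) was lost without WT combination library 2 or WT solvent library 1 (adjusted p up to 0.106), and HRK was lost without WT combination library 1, WT combination library 2, WT solvent library 1 or WT solvent library 2 (adjusted p up to 0.157). Without the slope limma called 0 members in Mutant (0.348% of all genes) and 0 in WT (2.23%), with 1 and 2 under an unadjusted p of 0.05.

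In solvent the lines differed in BAX. It read 28.5 and 34.8 CPM in Mutant and 30.5 and 39.0 CPM in Null, against 53.6 and 59.5 CPM in WT, with no overlap in deposited CPM. After TMM scaling the Null libraries overlapped those of WT and the Mutant ones did not. With the slope the difference was -0.82 ± 0.14 in Mutant against WT (limma, adjusted p = 0.000491) and -0.82 ± 0.14 in Null against WT (adjusted p = 0.000365), each kept without any of 4 libraries. BAX was the 1 member called in each of these comparisons, which called 5.09% and 8.64% of all genes. Between Mutant and Null 3 members were called with the slope (15.8% of all genes): PMAIP1 at 0.60 ± 0.19, BID at -0.45 ± 0.15 and HRK at -0.85 ± 0.28. PMAIP1 was lost without Mutant solvent library 1, Mutant solvent library 2 or Null solvent library 1 (adjusted p up to 0.365), BID without Mutant solvent library 2, Null solvent library 1 or Null solvent library 2 (up to 0.499) and HRK without any 1 of the 4 libraries (up to 0.347). Without the slope limma and edgeR called 0 members between lines, beside 0.629% of all genes for Mutant against WT, 0.992% for Null against WT and 2.49% for Mutant against Null (limma). At an unadjusted p under 0.05 there were 0, 0 and 1 members.

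Of 11 further BCL2 relatives tested, 0 were called in Mutant, 1 in Null and 1 in WT for averaged irradiation without the slope, and 2, 6 and 3 with it (limma). Of all genes, the same 3 comparisons called 0.523%, 1.17% and 3.94% without the slope and 12.5%, 18.3% and 24.9% with it. The 1 called without the slope was BCL2L15. Its WT values were 2.42 and 2.95 CPM after the combination, 1.21 and 1.02 CPM after irradiation and 0.482 and 0.257 CPM after APR-246, against 0 and 0.0365 CPM in solvent. In Null it read 2.32 and 1.40 CPM after the combination, 1.54 and 1.23 CPM after irradiation and 0.398 and 1.00 CPM after APR-246, against 0.198 and 0.0694 CPM in solvent. The solvent values, at 0 to 0.198 CPM, were the lowest in both lines, beside a floor of 3 reads (0.0517 to 0.0564 CPM). No fold against them is given, and the log2 differences depend on the pseudocount. Without the slope averaged irradiation raised BCL2L15 by 1.32 ± 0.21 in Null (limma, adjusted p = 0.00935), lost without Null APR-246 library 1 (adjusted p = 0.0683), and by 1.70 ± 0.21 in WT (adjusted p = 0.00033), kept without each of 8 libraries. BCL2A1 and BCL2L10 did not pass the filter on low values.

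Averaged irradiation was also followed in 17 genes downstream of the pore (apoptosome, caspases, their inhibitors and antagonists). Without the slope limma called 0 in Mutant, 0 in Null and 1 in WT, beside 0.523%, 1.17% and 3.94% of all genes. With it limma called 2, 6 and 9, beside 12.5%, 18.3% and 24.9% of all genes. The median log2 difference of the 17 genes without the slope was 0.19 in Mutant, 0.17 in Null and 0.26 in WT. Over all genes it was -0.0042, -0.011 and 0.0097. APAF1, the scaffold of the apoptosome, rose with the slope by 0.60 ± 0.14 in Mutant (limma, adjusted p = 0.00711, lost without Mutant combination library 1, adjusted p = 0.0727). It rose by 0.80 ± 0.14 in Null (adjusted p = 0.000469) and 0.96 ± 0.14 in WT (adjusted p = 2.22e-05), each kept without any of 8 libraries. DIABLO, which frees caspases from their inhibitors, stood at 1.26 to 2.95 CPM in irradiated WT libraries, against 0.639 to 1.55 CPM in unirradiated ones. It rose there by 0.65 ± 0.17 without the slope (limma, adjusted p = 0.0438), lost without WT APR-246 library 1, WT APR-246 library 2, WT combination library 2, WT irradiation library 1, WT irradiation library 2 or WT solvent library 2 (adjusted p up to 0.23).

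**Figure D5:**
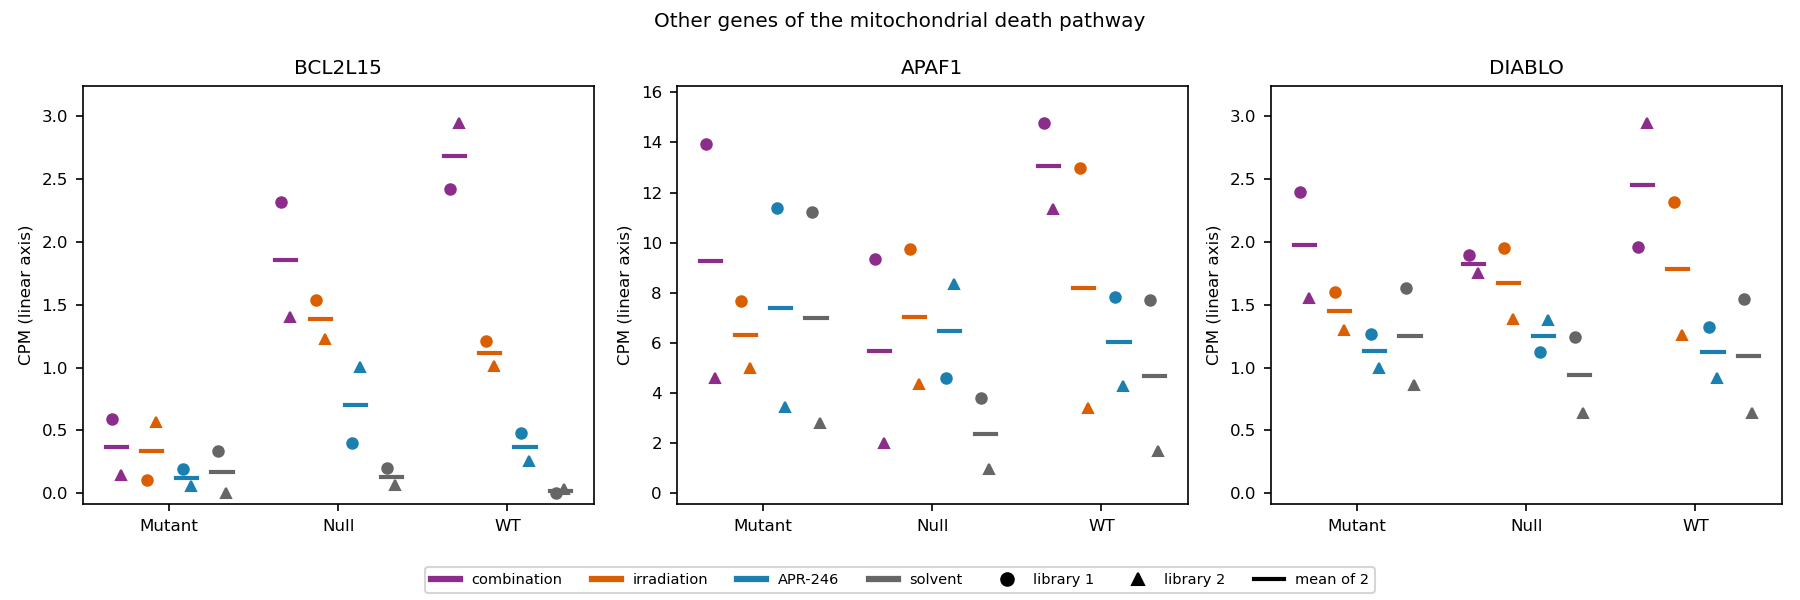
CPM of BCL2L15, APAF1 and DIABLO (linear axes), 3 genes chosen for display after their values were seen, in all 24 libraries by line and, from left to right within a line, combination, irradiation, APR-246 and solvent; circles and triangles are libraries 1 and 2 and bars their mean. BCL2L15 reads 2.42 and 2.95 CPM after the combination in WT and 0.591 and 0.147 CPM in Mutant.

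Among transcription factors known to drive members and MDM2, 7 genes were tested for averaged irradiation. Without the slope limma called 0 in Mutant, 0 in Null and 1 in WT, beside 0.523%, 1.17% and 3.94% of all genes. With it limma called 4, 2 and 4, where the shares of all genes were again 12.5%, 18.3% and 24.9%. In Mutant, ATF4, which drives stress genes, read 426 and 358 CPM after the combination, 301 and 309 CPM after irradiation and 499 and 383 CPM after APR-246, against 806 and 831 CPM in solvent. Its Null values were 325 and 277 CPM after the combination, 342 and 261 CPM after irradiation and 365 and 427 CPM after APR-246, against 816 and 676 CPM in solvent. The WT values were 332 and 338 CPM after the combination, 332 and 271 CPM after irradiation and 839 and 283 CPM after APR-246, against 885 and 735 CPM in solvent. In Mutant and Null every treated library lay below both solvent libraries of its line, and in WT 1 APR-246 library lay between them. For averaged irradiation in WT it fell by 1.06 ± 0.26 without the slope (limma, adjusted p = 0.0323), lost without WT APR-246 library 1, WT combination library 1, WT combination library 2, WT irradiation library 1, WT irradiation library 2 or WT solvent library 2 (adjusted p up to 0.155). With the slope it fell by 1.07 ± 0.19 (adjusted p = 0.000752), kept without each of 8 libraries. It also fell with the slope by 0.88 ± 0.20 in Mutant (limma, adjusted p = 0.00966, lost without Mutant solvent library 2, adjusted p = 0.0938) and by 0.92 ± 0.20 in Null (adjusted p = 0.0044), kept without each of 8 libraries. MDM2, the p53 ligase and p53 target, rose in WT for averaged irradiation with the slope by 1.50 ± 0.12 (limma, adjusted p = 6.46e-09), kept without each of 8 libraries. Without the slope that WT difference was 1.43 ± 0.41 (limma, adjusted p = 0.0687). In Mutant and Null MDM2 differed by 0.28 ± 0.12 and 0.16 ± 0.12, not called (limma with the GC slope, adjusted p = 0.134 and 0.388). TP63 did not pass the filter on low values.

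The genes most like HRK over the 12 group means, each gene centred on its own mean, were SPATS2, KDM6B and FUT1, with root mean square differences of 0.163, 0.166 and 0.168 on the log2 scale, where HRK itself varied by 0.537. The same measure for BAX, added after its values were seen, gave POLH, DDB2 and CA8, at 0.228, 0.257 and 0.263, where BAX itself varied by 0.668.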

How the data were processed

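RNA from HCT116 cells was read by oligo(dT) selection and paired 100-base sequencing, per the labels' protocols. The deposited values are CPM, which the authors computed per library. The submitters' processing notes name FastQC, STAR, featureCounts, Subread and the genome build GRCh38.p13, with no role or order; the counting strand and annotation release are not given in the sources used here. Whole reads were recovered from the CPM steps (100% of values whole within 0.05). Of values of 2 to 9 reads in a library, 74.5% to 81.5% were even; the effect of this on totals, the floor and the count test was not tested. Gene names, exon lengths and GC content came from GENCODE 29 and covered 98.3% of tested genes for GC.

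CPM values were scaled by TMM factors (0.741 to 1.28), given a pseudocount of 0.5 and tested with limma 3.58.1 in R 4.3.3 over all 12 groups, after a filter with a count minimum of 10 and with Benjamini-Hochberg adjustment at 0.05. A fold change on this scale understates the change of low genes. The GC slope was estimated per library over genes with a mean log2 value of at least 2. Alternatives were DESeq2 size factors, no scaling, no filter, pseudocounts of 0.1 and 2, the edgeR 4.0.16 quasi-likelihood test on recovered reads, a replicate block, only the lines compared, and leaving out each library. The limma models were tested on simulated counts that held no GC differences between libraries. The model with the GC slope was thus not tested on the differences it models. The members, lists and tests were chosen with earlier results of these data known. All 10 members are named; of the other lists, genes called against solvent or for averaged irradiation are named, with at most 8 a list. For a called member the 3 most alike genes are given. The precision is limited by 2 libraries per group, and the floor of 3 reads covers counting error only. Some genes that the rule for named genes would name are not reported here.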

Additional observations from a re-analysis of the deposited data

Results flagged for a closer look

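The response to irradiation differed between lines for several genes by a test of the difference itself (limma with the GC slope, adjusted over all genes; values are log2 and WT minus the other line). For BAX, WT minus Mutant was 1.00 for irradiation alone (adjusted p = 0.0161). Averaged over both drug states it was 1.04 for WT minus Mutant (adjusted p = 0.000118) and 0.78 for WT minus Null (adjusted p = 0.00181). BAK1 gave 0.46 for WT minus Mutant, averaged (adjusted p = 0.0256). Without the slope none of these was called.

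Among other genes of the pathway, averaged over both drug states, BCL2L15 gave 1.25 for WT minus Mutant (adjusted p = 0.0128). For WT minus Null, BIRC2 gave 0.58 (adjusted p = 0.0375), BIRC3 gave 1.06 (adjusted p = 0.0103) and BMF, a BH3-only gene, gave -1.49 (adjusted p = 0.0174). The label checks differed too. CDKN1A, the p53 target that stops the cell cycle, gave 2.25 for WT minus Mutant and 2.31 for WT minus Null with irradiation alone, and 1.75 and 1.50 when averaged (adjusted p at most 1.35e-05). MDM2 gave 1.18 for WT minus Mutant and 1.40 for WT minus Null with irradiation alone (adjusted p at most 0.0188), and 1.22 and 1.34 when averaged (adjusted p at most 0.000162). Without the slope none of the differences between lines of these 6 genes was called (for CDKN1A, adjusted p at least 0.216).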

How the results depend on the processing

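Counts of members called by limma without the GC slope were 0, except 1 for the combination against solvent in Null, and other settings moved them as follows. With the slope they were, against solvent, 2, 4 and 6 in Mutant for irradiation, APR-246 and the combination, 5, 5 and 6 in Null, and 2, 0 and 6 in WT; 5 in WT and 2 in Null for the combination against APR-246; 2 in Mutant, 4 in Null and 5 in WT for averaged irradiation; 1 for Mutant against WT, 1 for Null against WT and 3 for Mutant against Null in solvent; 1 for irradiation alone, WT minus Mutant; and 2 and 1 for averaged irradiation, WT minus Mutant and WT minus Null. Without scaling WT gave 1 for irradiation, 2 for the combination and 3 for averaged irradiation. The Null combination count was 0 without the filter, with a pseudocount of 0.1, with edgeR, with only the lines compared, and, leaving out libraries, 0 to 0. Without scaling it was again 1, but HRK was no longer called and BAX was called higher. The averaged WT count ran from 0 to 1 when libraries were left out. The labels do not establish that replicate numbers pair the libraries: correlations of deviations between same-numbered libraries ran from -0.563 to 0.896 over 66 pairs of groups, and 11 were under -0.1, each with Null APR-246. With the replicate block the counts were 2, 2 and 3 in WT for irradiation, the combination and averaged irradiation, 1 in WT for the combination against APR-246, 2 and 2 in Mutant for irradiation and the combination, and 1, 1, 3 and 1 in Null for irradiation, APR-246, the combination and averaged irradiation, where 1.34% to 12.8% of all genes were called (10.4% for averaged irradiation in WT). BAX and BIK were among the members then called for irradiation in WT. With the Null APR-246 numbers crossed, a choice made after seeing the data, they were 3, 3 and 5 in WT, 3 in WT for the combination against APR-246, 5, 4, 5 and 1 in Mutant for irradiation, APR-246, the combination and averaged irradiation, 2, 2, 4 and 5 in Null, 1 in Null for the combination against APR-246, 1 for Mutant against WT and 2 for Mutant against Null, where 1.19% to 20.3% of all genes were called. Of 65 member values followed (those with an unadjusted p under 0.05, or called with the slope), none reversed under DESeq2 size factors, no scaling, no filter, either pseudocount, edgeR, the block or the slope; BAX for the combination against irradiation in WT, not among them, was -0.28, and 0.29 with the slope. Leaving out 1 library reversed 10 values. Without Mutant solvent library 2, BBC3 gave 0.35 for irradiation (range -1.01 to 0.35), 0.11 for the combination (-1.25 to 0.11) and 0.12 averaged (-0.56 to 0.12), and BCL2L1 gave 0.38 (-0.85 to 0.38), 0.19 (-1.04 to 0.19) and 0.13 (-0.49 to 0.13). BAK1 gave -0.27 for the combination in WT without WT solvent library 1 (-0.27 to 0.79), and -0.026 and -0.036 for averaged WT minus Mutant without WT solvent library 1 and Mutant solvent library 2 (-0.036 to 0.52). BID gave -0.030 for the combination against APR-246 in WT without WT APR-246 library 1 (-0.030 to 0.66). The cause was not tested.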
